A study of Mus musculus with 6 samples.

Results

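The 10 genes described here encode the hypoxia-inducible factors (HIFs), the enzymes that sense oxygen for them, the BNIP3 mitophagy receptors and the oxidase ERO1L. They were taken by name from 17438 gene columns of the deposited table, and all 10 were present and passed the filter on low counts. RNA was sequenced from ILC2s (group 2 innate lymphoid cells), which lack antigen receptors, live in barrier tissues and answer the alarm cytokine IL-33 with type 2 cytokines. The cells were sorted from mouse lung and cultured, and IL-33 is given as the treatment of every sample. The Cd48 KO group (n = 3) carried the targeted allele B6.129S4-Cd48tm1Rsr/EpaulJ, and the WT group (n = 3) had the wild-type genotype. The strain is given as CB57BL/6 in both groups, and no age is given. CD48 is a GPI-anchored receptor of the SLAM family, and the comparison asked which transcripts of these cells differ when it is disrupted. Whether each sample was a separate animal or culture is not stated, so p-values measure only sample-to-sample spread, part of which may be technical.

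HIF is a pair of proteins, an alpha subunit (HIF-1α, encoded by Hif1a, or HIF-2α, encoded by Epas1) and the shared beta subunit ARNT. When oxygen is present, the prolyl hydroxylases of the Egln genes mark the alpha subunit, the VHL ubiquitin ligase binds the mark and the protein is degraded, while the asparaginyl hydroxylase HIF1AN blocks its binding to coactivators. Control is thus largely at the level of protein, which RNA counts do not show. Bnip3, Bnip3l and Ero1l are known targets of hypoxia signalling. In mouse ILC2s, VHL is known to restrain HIF-1α and glycolysis during maturation.

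Deposited counts summed to between 14928623 and 27450400 per library. WT1 stood apart: its Pearson's r with the other libraries, computed over genes on log2 CPM, was 0.922 to 0.932, while the other libraries reached 0.980 to 0.988 among themselves. CPM are counts per 1000000 counts of the library, with the library size corrected for composition by edgeR's TMM. Long transcripts were low in WT1, the median log2 difference from WT2 and WT3 being -0.41 between 4000 and 8000 bases and 0.32 between 500 and 1000 bases. The mitochondrial share of counts was 0.678, 0.737 and 0.777% in KO1, KO2 and KO3, against 0.264, 0.619 and 0.535% in WT1, WT2 and WT3, so every KO library lay above every WT library and WT1 was the lowest. The part of this share in the results was not tested. Because WT1 stood apart, fold changes are given with all 6 libraries and without WT1. The Cd48 transcript was at 4.84 ± 0.657 CPM (SD, n = 3) in KO and 48.8 ± 8.51 CPM (SD, n = 3) in WT. The 13 listed ILC2 markers were all present, with Gata3 at 780.3 to 1088 CPM in KO and 1072 to 1417 CPM in WT. The lowest of them was Thy1, at 6.05 to 7.19 CPM in KO and 8.90 to 12.4 CPM in WT. Of the 13 markers, 9 had a positive log2 fold change of KO over WT with 6 libraries, and Gata3 and Thy1 were not among these. Fewer cells of a type and less RNA per cell cannot be told apart in these bulk samples.

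With all 6 libraries, 0 of the 10 genes passed edgeR's quasi-likelihood test at an adjusted p under 0.05 (Benjamini-Hochberg, BH), against a background of 0.03% of 13317 tested genes (0.015% higher and 0.015% lower in KO). At an unadjusted p under 0.05 there were 3, all higher in KO (Hif1a, Epas1 and Ero1l), against 6.89% of all tested genes (13.7% without WT1). On the same libraries DESeq2 called Epas1 higher (background 0.811%), while Epas1 and Ero1l were called higher by quality-weighted limma-voom (background 0.751%). Without WT1, edgeR called 4 of the 10 higher in KO and 0 lower: Hif1a, Epas1, Bnip3 and Ero1l. The background in that fit was 1.17% higher and 0.652% lower over 13643 tested genes. DESeq2 (background 2.94%) and limma-voom (background 2.13%) called the same number of the 10, 4, without WT1. The other 6 genes, Arnt, Vhl, Egln1, Egln2, Hif1an and Bnip3l, did not pass in either edgeR fit.

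**Figure D1:**
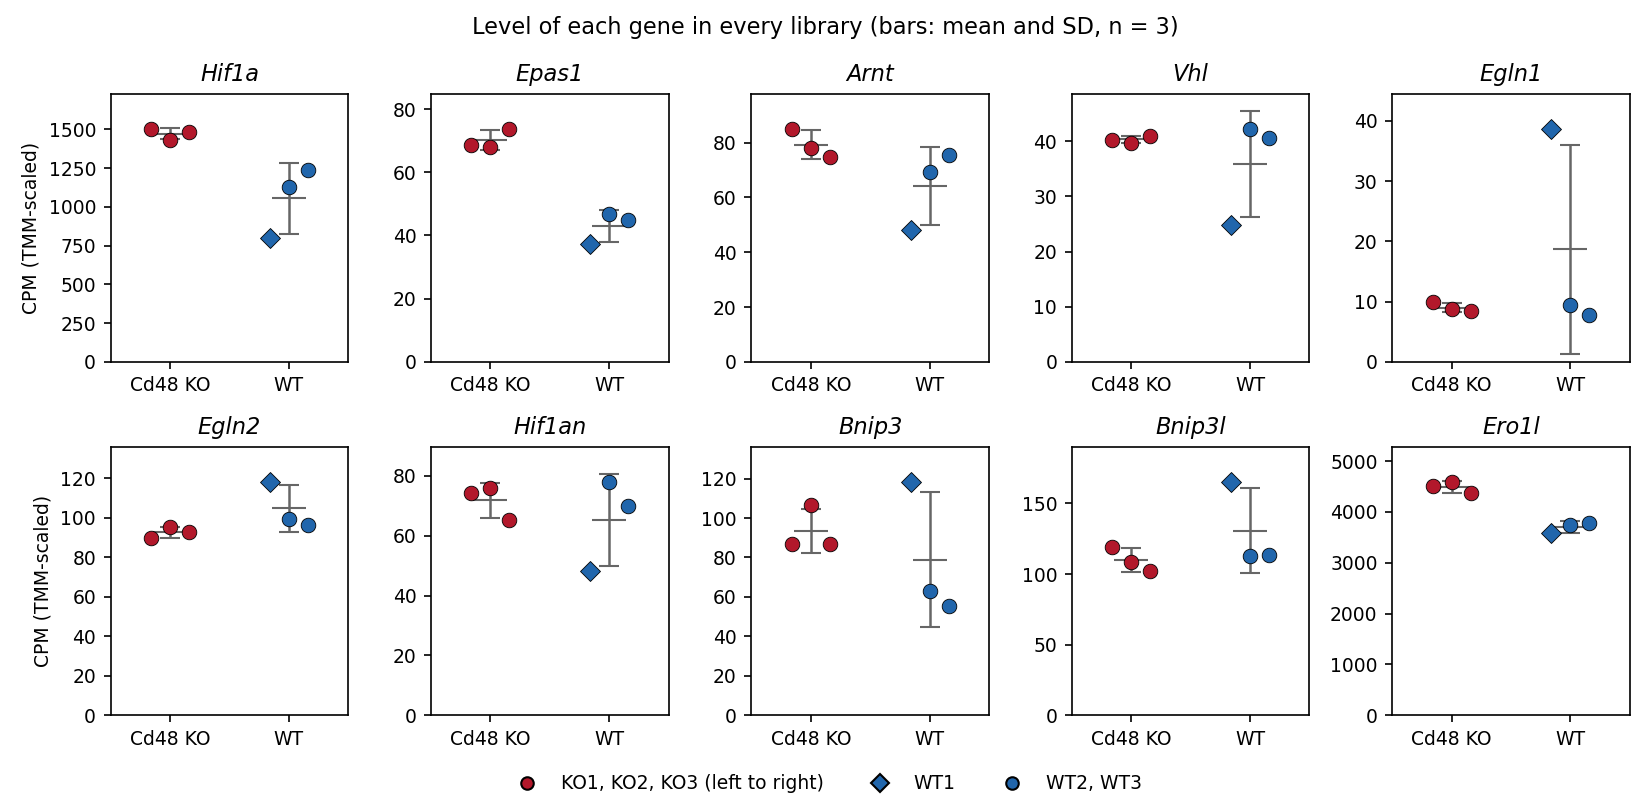
The level of each of the 10 genes in TMM-scaled CPM (y axis, linear from 0) is plotted for every KO library (left, red) and every WT library (right, blue), with WT1 as a diamond and bars for the mean and SD of 3 libraries. Hif1a, Epas1 and Ero1l had every KO library above every WT library, and in Egln1, Egln2, Bnip3 and Bnip3l the WT1 library was the highest of the 6.

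The promoters of 3 of the 4 genes called without WT1 are shown because the HIF pair binds a short core motif in DNA. These are the 250 bases before each gene's start from RefSeq (GRCm38.p6), read 5′ to 3′ on the gene's strand. Capitals mark matches to the core, searched as ACGTG and GCGTG and, on the other strand, as CACGT and CACGC. The RefSeq start of Hif1a lies inside the longer span that GENCODE gives the gene, and so does its whole window. The GENCODE span of Ero1l (minus strand) runs to 45318771, so most of its window and all of its marked matches lie inside that span. The GENCODE span of Bnip3 (minus strand) runs to 138909519, and its marked matches lie upstream of that. The lines cover chr12:73907617-73907866 (plus strand) for Hif1a, chr7:138909507-138909756 (minus strand) for Bnip3 and chr14:45318573-45318822 (minus strand) for Ero1l.
Hif1a: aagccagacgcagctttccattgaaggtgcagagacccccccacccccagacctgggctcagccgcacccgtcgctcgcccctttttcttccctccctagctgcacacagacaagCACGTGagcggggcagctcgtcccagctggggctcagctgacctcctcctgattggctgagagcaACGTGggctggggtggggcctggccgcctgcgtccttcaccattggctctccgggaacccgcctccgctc
Bnip3: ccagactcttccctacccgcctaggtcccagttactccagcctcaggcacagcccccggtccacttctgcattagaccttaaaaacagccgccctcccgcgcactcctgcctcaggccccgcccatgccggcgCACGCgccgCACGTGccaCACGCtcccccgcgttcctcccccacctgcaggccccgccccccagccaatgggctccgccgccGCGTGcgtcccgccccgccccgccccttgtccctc
Ero1l: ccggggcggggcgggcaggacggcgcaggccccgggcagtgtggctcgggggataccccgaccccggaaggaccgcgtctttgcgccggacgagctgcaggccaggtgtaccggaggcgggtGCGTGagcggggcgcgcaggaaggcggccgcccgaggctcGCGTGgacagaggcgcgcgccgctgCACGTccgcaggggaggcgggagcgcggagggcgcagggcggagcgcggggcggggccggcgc

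Hif1a had 3 matches, Bnip3 had 5 and Ero1l had 3. In Hif1a and Bnip3, a pair of matches overlaps on opposite strands as CACGTG and counts on both. Of 32851 promoter windows of the same length in the RefSeq table, 38.6% held at least 1 match, 6.58% held at least 3 and 1.01% held at least 5. Among the other genes, Egln1 had 2 matches, Egln2 had 4 before its upstream start and 1 before its downstream start, Arnt had 1, and Vhl and Hif1an had 0. A match is a run of letters and not a site of binding. Epas1 and Bnip3l were not matched in that table.

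Hif1a encodes HIF-1α (chr12:73901375-73947530, plus strand, GRCm38). Its level was 1505, 1433 and 1480 CPM in KO1, KO2 and KO3, against 799.0, 1131 and 1239 CPM in WT1, WT2 and WT3. The groups did not overlap, and WT1 was the lowest library. The antisense gene Gm15283 overlaps Hif1a and had 11 to 14 counts in KO and 12 to 23 in WT. The protein-coding gene Gm49321 overlaps Hif1a by 9878 bases on the same strand. Gm49321 has no column under its name in the deposited table, so how its reads were assigned is not known. KO averaged 1473 ± 36.5 CPM and WT averaged 1056 ± 229 CPM (SD, n = 3 each). Its log2 fold change with 6 libraries, 0.48 (SE 0.17), had an adjusted p of 0.690 (edgeR, BH). Without WT1 it rose by 0.32 on the log2 scale (SE 0.05, 95% interval 0.20 to 0.43), with an adjusted p of 0.0108 (edgeR, BH). Leaving out a further library ended that call without KO3 (adjusted p 0.0667) and without WT2 (0.107; edgeR, BH).

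Epas1 encodes HIF-2α, the alpha subunit best known from endothelium and lung epithelium (chr17:86753700-86833410, plus strand). Its level was 68.5, 68.1 and 73.8 CPM in KO1, KO2 and KO3, against 37.2, 46.7 and 44.9 CPM in WT1, WT2 and WT3. Every KO library lay above every WT library, with 1107 to 1308 counts in KO and 533 to 1252 counts in WT. With 6 libraries the log2 fold change was 0.71 (SE 0.13, 95% interval 0.39 to 1.02), with an adjusted p of 0.555 (edgeR, BH). DESeq2 gave an adjusted p of 0.000843 and limma-voom with quality weights 0.0148 on those libraries. Without WT1, Epas1 rose by 0.62 on the log2 scale (SE 0.09; adjusted p 0.00479, edgeR, BH). Leaving out any further library kept that call, with adjusted p from 0.00966 to 0.0438 (edgeR, BH).

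Of 10 listed endothelial markers, 3 were in the table and 2 were tested. Their summed level was 42.2 to 44.6 CPM in KO and 30.2 to 42.9 CPM in WT, nearly all of it Pecam1, which leukocytes also express, and Vwf was at 0 counts in KO1, KO2 and WT1. The 10 listed epithelial markers were all in the table and summed to 10.5 to 24.3 CPM in KO and 31.7 to 87.7 CPM in WT. Single genes weighed on these sums, with Scgb1a1 at 12.9 CPM in KO3 and 47.2 CPM in WT3, and Sftpc at 23.3 CPM in WT2. Of 7 listed T cell markers, 4 were in the table and summed to 13.7 to 15.8 CPM in KO and 25.7 to 43.8 CPM in WT. Most of this was Cd3g, at 12.9 to 13.9 CPM in KO and 22.9 to 41.0 CPM in WT, and Trac had 0 to 5 counts per library. Summed macrophage markers (8 genes) were at 6.44 to 14.7 CPM in KO and 9.01 to 29.8 CPM in WT. The part of these cell types in the Epas1 result was not tested.

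Per kilobase of the longest annotated transcript, the Hif1a level was 25.7, 24.6 and 23.4 times the Epas1 level in KO1, KO2 and KO3, against 25.1, 28.3 and 32.2 times in WT1, WT2 and WT3. The ranges overlapped through WT1. Arnt encodes the common partner of both alpha subunits (chr3:95434388-95497240, plus strand). Its level was 85.1, 78.0 and 74.7 CPM in KO1, KO2 and KO3, against 48.2, 69.2 and 75.3 CPM in WT1, WT2 and WT3. KO3 lay below WT3, so the groups overlapped. The log2 fold change was 0.30 (SE 0.18) with 6 libraries and 0.13 without WT1 (SE 0.09, 95% interval -0.06 to 0.33), and the adjusted p were 0.690 and 0.570 (edgeR, BH). The ratio of Hif1a to Arnt per kilobase was 16.2, 16.8 and 18.2 in KO1, KO2 and KO3, against 15.2, 14.96 and 15.1 in WT1, WT2 and WT3, so the ratio was higher in each KO library than in any WT library. The difference in this ratio was not tested.

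Vhl encodes the substrate-binding part of the ubiquitin ligase (chr6:113623959-113631633, plus strand). Its level was 40.2, 39.8 and 41.0 CPM in KO1, KO2 and KO3, against 24.9, 42.3 and 40.5 CPM in WT1, WT2 and WT3. WT1 was low and the other 5 libraries lay close together. Its log2 fold change was 0.17 (SE 0.21) with 6 libraries and -0.03 without WT1 (SE 0.10, 95% interval -0.25 to 0.18).

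Egln1 encodes PHD2, the main prolyl hydroxylase for HIF-1α (chr8:124908587-124949324, minus strand). It was the scarcest of the 10 genes in every library but WT1, at 9.95, 8.73 and 8.41 CPM in KO1, KO2 and KO3, against 38.8, 9.41 and 7.86 CPM in WT1, WT2 and WT3. The WT1 value rests on 555 counts, whereas the other libraries had 141 to 219 counts. The log2 fold change was -1.04 (SE 0.61) with 6 libraries and 0.07 without WT1 (SE 0.19, 95% interval -0.34 to 0.49), so its direction was set by WT1.

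Egln2 encodes PHD1, a second prolyl hydroxylase (chr7:27158658-27166802, minus strand). Its level was 89.8, 95.4 and 92.7 CPM in KO1, KO2 and KO3, against 118.1, 99.3 and 96.4 CPM in WT1, WT2 and WT3. Every KO library lay below every WT library, KO2 and WT3 being the closest pair. This held for 9.11% of all tested genes with 6 libraries. The log2 fold change was -0.18 (SE 0.12) with 6 libraries and -0.08 without WT1 (SE 0.08, 95% interval -0.24 to 0.09), and the adjusted p were 0.693 and 0.743 (edgeR, BH).

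Hif1an encodes the asparaginyl hydroxylase FIH (chr19:44562850-44576274, plus strand). Its level was 74.2, 75.9 and 65.3 CPM in KO1, KO2 and KO3, against 48.3, 78.0 and 69.9 CPM in WT1, WT2 and WT3, and the groups overlapped. Hif1an had a log2 fold change of 0.13 (SE 0.19) with 6 libraries and -0.04 without WT1 (SE 0.09, 95% interval -0.24 to 0.16).

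**Figure D2:**
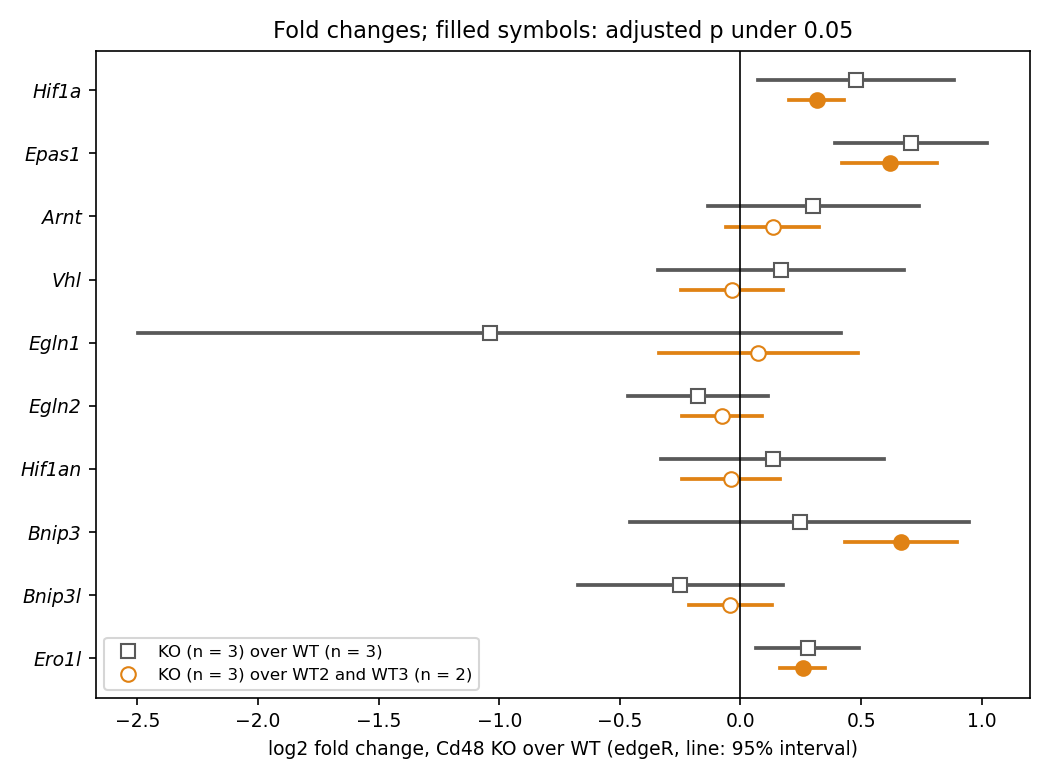
The log2 fold change of Cd48 KO over WT (x axis) is shown for each of the 10 genes (rows) from edgeR, with 95% intervals, for all 6 libraries (grey squares) and without WT1 (orange circles). Filled symbols, with an adjusted p under 0.05, are Hif1a, Epas1, Bnip3 and Ero1l without WT1, and the intervals of the other 6 genes cross 0 in both fits.

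Bnip3 encodes a receptor in the outer mitochondrial membrane that recruits the autophagy machinery (chr7:138890836-138909519, minus strand). Its level was 86.9, 106.4 and 87.0 CPM in KO1, KO2 and KO3, against 118.4, 62.8 and 55.5 CPM in WT1, WT2 and WT3. The highest and the lowest value were both WT libraries, and the KO libraries lay between WT1 and the other WT libraries. With 6 libraries the log2 fold change was 0.24 (SE 0.29, 95% interval -0.46 to 0.95), with an adjusted p of 0.760 (edgeR, BH). Without WT1, Bnip3 rose by 0.67 on the log2 scale (SE 0.11, 95% interval 0.43 to 0.90), with an adjusted p of 0.00981 (edgeR, BH). The opposite-strand gene Gm45507 (3712 bases) and pseudogene Gm18258 (852 bases) overlap Bnip3, and neither has a column under its name in the deposited table. Reads of these overlaps cannot be told apart without strand. The Bnip3 call ended when WT3 was also left out (adjusted p 0.0790; edgeR, BH).

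Bnip3l encodes NIX, a related receptor known for clearing mitochondria from maturing red cells (chr14:66985239-67008877, minus strand). Its level was 119.0, 108.5 and 102.1 CPM in KO1, KO2 and KO3, against 165.4, 112.9 and 113.7 CPM in WT1, WT2 and WT3. The groups overlapped through KO1. For Bnip3l the log2 fold change was -0.25 (SE 0.18) with 6 libraries and -0.04 without WT1 (SE 0.08, 95% interval -0.22 to 0.13). Per kilobase, the ratio of Bnip3 to Bnip3l was 1.36, 1.82 and 1.58 in KO1, KO2 and KO3, against 1.33, 1.03 and 0.905 in WT1, WT2 and WT3. Each KO library had a higher ratio than any WT library, KO1 and WT1 being the closest pair. The difference in this ratio was not tested.

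Ero1l encodes the oxidase of the endoplasmic reticulum that passes electrons from protein disulfide isomerase to oxygen (chr14:45283087-45318771, minus strand). Its level was 4515, 4595 and 4372 CPM in KO1, KO2 and KO3, against 3582, 3742 and 3791 CPM in WT1, WT2 and WT3. Every KO library lay above every WT library, and WT1 was close to the other WT libraries. KO averaged 4494 ± 113 CPM and WT averaged 3705 ± 109 CPM (SD, n = 3 each). With 6 libraries the log2 fold change was 0.28 (SE 0.09, 95% interval 0.07 to 0.49), with an adjusted p of 0.690 (edgeR, BH), and limma-voom with quality weights gave an adjusted p of 0.0350. Without WT1, Ero1l rose by 0.26 on the log2 scale (SE 0.04; adjusted p 0.0108, edgeR, BH). Leaving out KO2, WT2 or WT3 as well ended that call (adjusted p 0.0858, 0.0894 and 0.0540; edgeR, BH).

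Over the 10 genes, 3 had every KO library above every WT library (Hif1a, Epas1 and Ero1l) and 1 had every KO library below (Egln2), against 10.2% and 9.11% of all tested genes. Without WT1 the counts were 4 above, with Bnip3 added, and 1 below, against 15.8% and 14.3%. The median log2 fold change of the 10 genes was 0.21 with 6 libraries and 0.10 without WT1, and over all tested genes it was -0.004 and 0.0005.

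By level per kilobase in KO, the order was Ero1l (1017 ± 25.5 CPM per kb), Hif1a (311.8 ± 7.72), Bnip3 (53.2 ± 6.39), Egln2 (43.95 ± 1.33), Bnip3l (33.7 ± 2.61), Arnt (18.3 ± 1.24), Vhl (14.5 ± 0.217), Epas1 (12.7 ± 0.582), Hif1an (11.6 ± 0.925) and Egln1 (2.51 ± 0.227; SD, n = 3). No neighbours in that order overlapped between the KO libraries. In WT, Ero1l (838.6 ± 24.7 CPM per kb) and Hif1a (223.6 ± 48.5; SD, n = 3) also led. Neighbours overlapped there among Egln2, Bnip3 and Bnip3l, and among Arnt, Vhl, Hif1an, Epas1 and Egln1. In the ranking of 17022 genes by mean CPM per kb over the 6 libraries, Ero1l was number 33, Hif1a number 231, Bnip3 number 1701 and Epas1 number 5661.

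WT1 differed from WT2 and WT3 in opposite directions among these genes. Its log2 CPM minus their mean was 2.16 for Egln1, 1.003 for Bnip3, 0.54 for Bnip3l and 0.27 for Egln2. It was -0.07 for Ero1l, -0.30 for Epas1, -0.57 for Hif1a, -0.58 for Arnt, -0.61 for Hif1an and -0.73 for Vhl. The genes that were low in WT1 included all 5 with transcripts over 4000 bases, and the exception among the shorter ones was Vhl, at 2792 bases. Transcripts of 1500 to 4000 bases had a median difference of 0.07 over all tested genes, so Egln1 (3594 bases) and Bnip3 (1756 bases) lay far above that median. With each library's dependence on transcript length entered as offsets, the log2 fold changes with 6 libraries were 0.38 for Hif1a, 0.54 for Epas1, 0.37 for Bnip3, 0.18 for Ero1l and -1.11 for Egln1. The unadjusted p with these offsets was 0.0126 for Hif1a, 0.00189 for Epas1 and 0.0986 for Ero1l (edgeR), so Ero1l was no longer under 0.05.

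**Figure D3:**
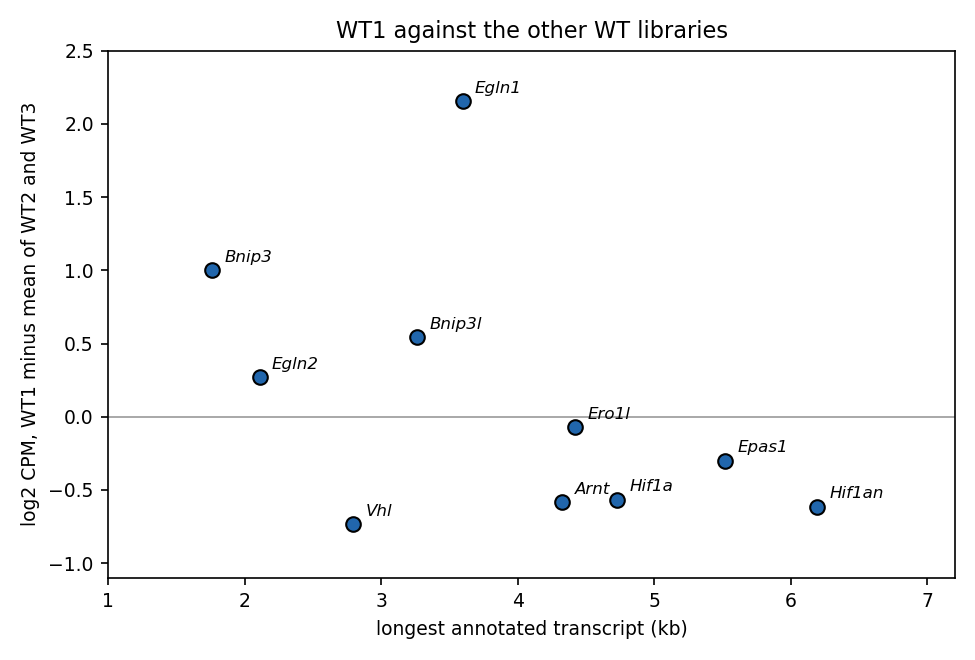
The log2 CPM of WT1 minus the mean of WT2 and WT3 (y axis) is plotted against the longest annotated transcript in kb (x axis) for the 10 genes, 1 point a gene. Egln1 stands at 2.16 and Bnip3 at 1.003, and the 5 genes over 4 kb lie between -0.61 and -0.07.

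The closest patterns over the 6 libraries were measured as the root mean square distance between centred log2 CPM. They were sought among 8433 genes averaging 10 CPM or more, with provisional symbols (Gm with a number, or ending in Rik) left out. For Hif1a these were Chuk (distance 0.04), Mtmr1 (0.04) and Dkk3 (0.05). For Ero1l they were Rad18 (0.02), Nucks1 (0.02) and Dcun1d1 (0.03). For Bnip3 they were Cystm1 (0.09), Spc25 (0.11) and Ska1 (0.11). The Cystm1 level was 45.2, 53.2 and 42.6 CPM in KO1, KO2 and KO3, against 59.6, 37.1 and 30.5 CPM in WT1, WT2 and WT3, the same high WT1 as Bnip3.

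Other regulators of HIF were read from a list of 18 genes. With 6 libraries 0 passed edgeR's test (4 at an unadjusted p under 0.05, and 1 by DESeq2), and without WT1 1 rose and 0 fell. The shares over all tested genes were 0.03%, 6.89% and 0.811% with 6 libraries. Without WT1 the edgeR shares were 1.17% higher and 0.652% lower. Of the 4 genes at an unadjusted p under 0.05, 1 was higher and 3 were lower in KO. Without WT1 there were 6 such genes (edgeR), 3 higher and 3 lower, against 13.7% of all tested genes. With 6 libraries every KO library lay above every WT library in 3 of the 18 and below in 3, against 10.2% and 9.11%. The gene that rose was Egln3, which encodes PHD3, a prolyl hydroxylase that is itself a known HIF target. Its level was 12.2, 13.9 and 8.30 CPM in KO1, KO2 and KO3, against 2.10, 3.67 and 4.85 CPM in WT1, WT2 and WT3. The groups did not overlap, which held in this direction for 10.2% of all tested genes with 6 libraries. Without WT1 it rose by 1.41 on the log2 scale (SE 0.25; adjusted p 0.0151), and with 6 libraries the value was 1.68 (SE 0.35; adjusted p 0.577; edgeR, BH). DESeq2 gave it an adjusted p of 0.00422 on the 6 libraries. The call without WT1 ended when KO2, WT2 or WT3 was also left out (adjusted p 0.0817, 0.0950 and 0.0515; edgeR, BH), and also with a replicate block (0.0571). The most abundant regulators per kilobase were the chaperone genes Hsp90ab1 and Hsp90aa1 and the VHL partner Elob. Their log2 fold changes were -0.02, 0.29 and -0.35 with 6 libraries and -0.05, 0.03 and -0.11 without WT1, and none passed in either fit. The list's median log2 fold change was -0.20 with 6 libraries and -0.02 without WT1.

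Of 19 HIF targets outside glycolysis, 0 passed in either edgeR fit. At an unadjusted p under 0.05 there were 3 of 19 with 6 libraries and 4 of 19 without WT1, against 6.89% and 13.7% of all tested genes. DESeq2 called 0 and 1, against 0.811% and 2.94%. The median log2 fold change was 0.12 with 6 libraries and 0.14 without WT1, with 11 and 14 positive values. The lipid droplet gene Plin2, the most abundant of them per kilobase, was at 1171, 1180 and 1224 CPM in KO1, KO2 and KO3, against 2334, 1208 and 1232 CPM in WT1, WT2 and WT3. The mitochondrial genes Fam162a and Higd1a had log2 fold changes of 0.08 and 0.15 without WT1 and of -0.15 and -0.27 with 6 libraries. WT1 was the highest library for each of these 3 genes.

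Of 20 HIF targets in glycolysis, 0 passed edgeR's test with 6 libraries (5 at an unadjusted p under 0.05, 1 by DESeq2 and 3 by limma-voom), and 4 rose and 0 fell without WT1. Over all tested genes the shares were 0.03%, 6.89%, 0.811% and 0.751% with 6 libraries. Without WT1 the edgeR shares were 1.17% higher and 0.652% lower. Their log2 fold changes had a median of 0.28 with 6 libraries, 18 of 20 being positive, and a median of 0.17 without WT1, 17 being positive, against 49.5% and 50.2% positive over all tested genes. Slc16a3, which encodes the lactate exporter MCT4, was at 205.8, 228.6 and 208.3 CPM in KO1, KO2 and KO3, against 139.2, 146.9 and 129.2 CPM in WT1, WT2 and WT3. WT1 lay between the other WT libraries, and the log2 fold change was 0.63 (SE 0.11) with 6 libraries and 0.64 (SE 0.08) without WT1. The adjusted p were 0.544 and 0.00138 (edgeR, BH). The other glycolysis genes that rose without WT1 were Pfkl (log2 fold change 0.44), Tpi1 (0.32) and Pgam1 (0.25), with adjusted p of 0.0109, 0.0109 and 0.0359 (edgeR, BH). With 6 libraries their log2 fold changes were 0.37, 0.39 and 0.30, each with an adjusted p of 0.690 (edgeR, BH). With KO2, KO3 or WT3 also left out only Slc16a3 of the 4 was still called, and with WT2 left out Slc16a3 and Pfkl were. The most abundant, Aldoa, Eno1 and Ldha, had log2 fold changes of 0.17, -0.11 and 0.37 with 6 libraries and 0.16, 0.07 and 0.25 without WT1. None passed in either fit, and the sign of Eno1 differed between them. With 6 libraries every KO library lay above every WT library in 9 of the 20 and below in 0, against 10.2% and 9.11%. Without WT1 these counts were 10 and 0, against 15.8% and 14.3%.

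Of 19 tested genes of the mitophagy machinery besides Bnip3 and Bnip3l, 0 passed edgeR's test with 6 libraries (2 at an unadjusted p under 0.05 and 0 by DESeq2), and 0 rose and 1 fell without WT1. The shares over all tested genes were 0.03%, 6.89% and 0.811% with 6 libraries. Without WT1 the edgeR shares were 1.17% higher and 0.652% lower. The gene that fell was Sqstm1, the cargo adaptor p62, at 1537, 1415 and 1525 CPM in KO1, KO2 and KO3, against 911.7, 1739 and 1752 CPM in WT1, WT2 and WT3. Its log2 fold change was -0.22 without WT1 (SE 0.05; adjusted p 0.0401, edgeR, BH), and 0.02 with 6 libraries. Leaving out KO2, KO3, WT2 or WT3 as well ended that call. The receptor gene Fkbp8 and the LC3 relative Gabarap had log2 fold changes of -0.08 and -0.35 with 6 libraries and 0.001 and -0.16 without WT1. The list's median was -0.11 with 6 libraries, 8 of 19 being positive, and 0.001 without WT1, 10 being positive. Without WT1, 5 of 19 had an unadjusted p under 0.05 (edgeR), against 13.7% of all tested genes. All 5, and both such genes with 6 libraries, were lower in KO. Every KO library lay below WT2 and WT3 in 7 of the 19 and above them in 1, against 14.3% and 15.8%. With 6 libraries every KO library lay below every WT library in 4 and above in 0, against 9.11% and 10.2%.

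Ero1l was also set beside 14 genes of oxidative folding in the endoplasmic reticulum, of which 0 passed in either edgeR fit. At an unadjusted p under 0.05 there were 0 of 14 with 6 libraries and 1 of 14 without WT1, against 6.89% and 13.7% of all tested genes. DESeq2 called 0 in both, against 0.811% and 2.94%. The median log2 fold change was 0.009 with 6 libraries and -0.02 without WT1. The disulfide isomerase gene Pdia3 and the chaperone genes Hspa5 and Hsp90b1, the most abundant per kilobase, had log2 fold changes of -0.09, -0.23 and -0.02 with 6 libraries and -0.10, -0.001 and -0.04 without WT1.

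**Figure D4:**
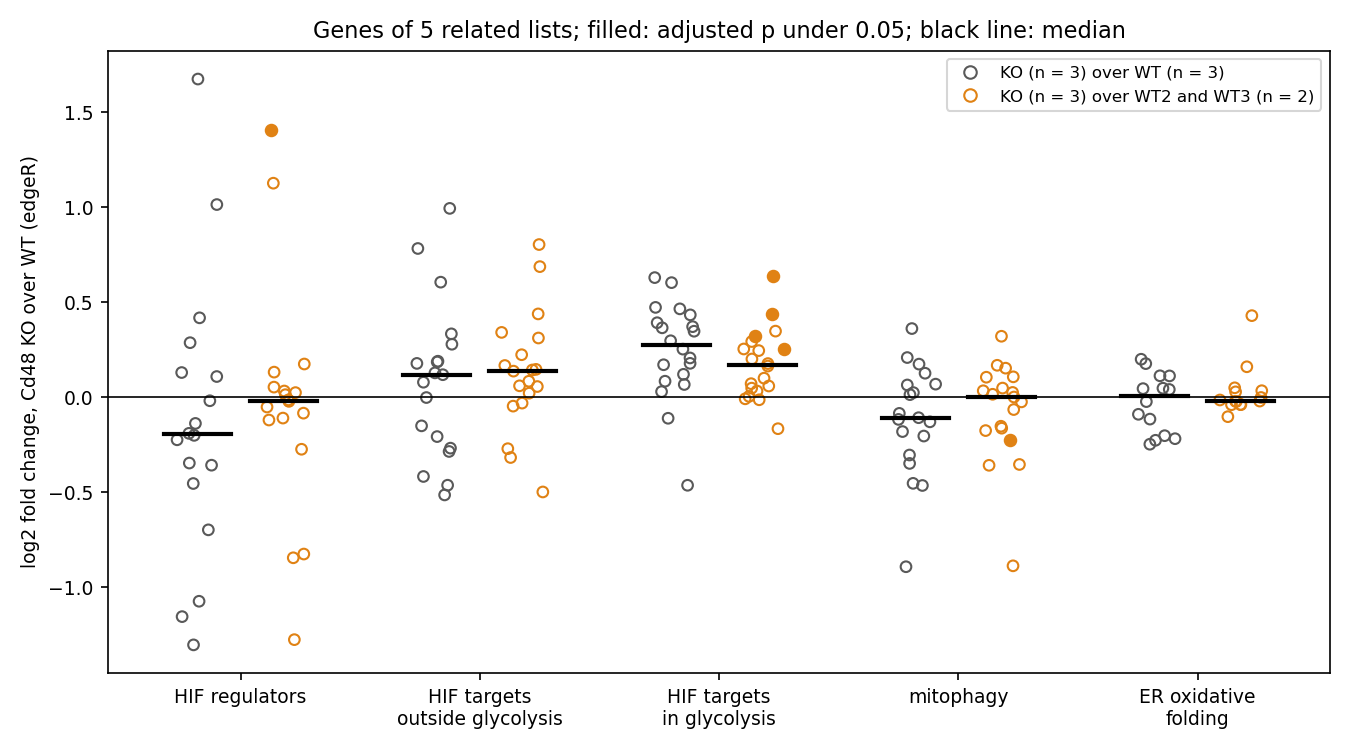
The log2 fold change of Cd48 KO over WT (y axis) is shown for each gene of 5 related lists (x axis), for all 6 libraries (grey) and without WT1 (orange), with black lines at the medians. Filled symbols mark an adjusted p under 0.05 in edgeR: none with 6 libraries, and without WT1 Egln3, 4 glycolysis genes and Sqstm1.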

How the data were processed

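The deposited table holds estimated counts per gene, not normalized by the authors; of the values above 0, 60.2% were whole within 0.001. STAR 2.7.8, Partek 10.0, DESeq2 and mm10 are named in the submitters' processing notes, without roles, and strand use in counting is not given in the sources used here. Per the labels' protocols, libraries were made from 10 pg of RNA with a SMARTer low-input kit. The design text speaks of duplicates, while 3 samples per group were analysed. Libraries of a group differed by more than sampling noise, with a chi-square per gene of 5.22 to 135.

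Counts were rounded and tested in R 4.3.3 with edgeR 4.0.16 (TMM, filterByExpr, robust quasi-likelihood test, BH over all tested genes, calls at an adjusted p under 0.05), and steps were tested on simulated data. SE is the log2 fold change divided by the square root of F. DESeq2 1.42.0, limma 3.58.1 (voom), other scalings and filters, and leaving out each library were alternatives. Lengths and positions are from GENCODE (GRCm38), which matched 17022 of 17438 genes (97.6%).

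The members and gene lists were chosen with earlier results of these data known. Named by rule were the 10 genes, the called genes of each list (up to 4), its 3 most abundant per kilobase, and the 3 nearest patterns to Hif1a, Bnip3 and Ero1l.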

Additional observations from a re-analysis of the deposited data

How the results depend on the processing

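With all 6 libraries, edgeR called 4 genes, DESeq2 108 and limma-voom with quality weights 100, and leaving out 1 library gave 0 to 248. Of the 10 genes, DESeq2 called 1, limma-voom 2 and the leave-outs 0 to 4. Among HIF regulators DESeq2 called 1 and the leave-outs 0 to 1, among glycolysis targets DESeq2 called 1, limma-voom 3 and the leave-outs 0 to 4, and among mitophagy genes the leave-outs called 0 to 1. The sign turned for Vhl (-0.0231 with limma-voom, -0.0344 to 0.302 over leave-outs), Egln1 (-1.41 to 0.0743 over leave-outs) and Hif1an (-0.0311 with limma-voom, -0.0561 with the length trend in the offsets, -0.0381 to 0.282 over leave-outs). The cause was not tested.

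Without WT1, edgeR called 248 genes, DESeq2 401 and the fit that was not robust 157, and leaving out a further library gave 65 to 517. Of the 10 genes, 4 were called under each other setting and 2 to 4 over leave-outs. HIF regulators gave 0 with a mean of at least 10 CPM, 2 with limma-voom and 0 to 3 over leave-outs. Targets outside glycolysis gave 1 with DESeq2 and 0 to 1 over leave-outs, and targets in glycolysis 1 to 6 over leave-outs. Mitophagy genes gave 3 with DESeq2, 2 with limma-voom, 0 when not robust and 0 to 3 over leave-outs. The sign turned over leave-outs for Egln1 (-0.0635 to 0.196) and Hif1an (-0.124 to 0.035). Egln1 and Egln3, the HIF regulator called in the main fit, were not tested with a mean of at least 10 CPM.

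Deviations of same-numbered KO and WT libraries correlated at -0.0461, -0.0356 and -0.00911 over genes, so the numbers were not taken to pair the samples. With a replicate block, 0 genes were called with 6 libraries and 570 without WT1 (233 higher, 337 lower in KO), among them 4 of the 10 genes and 6 glycolysis targets, all higher, and 3 HIF regulators and 3 mitophagy genes, all lower. Egln3 was not called with the block (adjusted p 0.0571, edgeR, BH).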
